A study of Mus musculus with 6 samples.

Results

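Trp53, the gene of the tumour suppressor p53, was followed together with 8 genes that act on p53 or are known as its transcriptional targets: Trp53inp1, Mdm2, Mdm4, Cdkn1a, Ccng1, Sesn1, Zmat3 and Phlda3. Every array probe that carries the name of one of these genes was taken, which gave 13 of the 55681 probes on the array and 9 of its 34797 distinct gene names. The study examined how miR-26a and a block of the miR-26 family act on B cell precursors. RNA came from 1676 cells, a mouse pre-B cell line, and was hybridised to 6 one-colour Agilent arrays of 60-base probes, with 2 arrays in each of 3 groups. Control cells carried the empty vector, miR-26a cells expressed hsa-miR-26a-2, and sponge cells expressed a miR-26 sponge, a transcript that binds and sequesters miR-26 family members. All 3 groups had the genotype SLP-65-/- LAT-/-, were infected with retroviral vectors, were selected with puromycin and were kept in IL-7. The series describes 2 independent experiments, each with its own cell clones, so every group was measured once in each experiment.

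p53 is a transcription factor that is stabilised after DNA damage and other stress, and its targets arrest the cell cycle, repair DNA, limit growth or start apoptosis. Mdm2 marks p53 for degradation and is itself a p53 target, and the related Mdm4 binds p53 and restrains its activity. In developing B cells, where antigen receptor genes are cut and rejoined, this pathway is known to guard against damaged rearrangements, and Trp53inp1 encodes a stress-induced protein that acts with p53 in arrest and cell death and also in autophagy.

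The introduced miRNA and the relative that the sponge also binds have the mature sequences below, taken from RefSeq (GRCm38.p6), with the seed, bases 2 to 8, in capitals. Both share this seed.

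mmu-miR-26a-5p: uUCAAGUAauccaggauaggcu

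mmu-miR-26b-5p: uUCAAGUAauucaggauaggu

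Probe sequences were searched, as the scanner output writes them, for the 7-base words TACTTGA, which pairs with bases 2 to 8, and ACTTGAA, which pairs with bases 2 to 7 and is followed by an A. Of the 13 member probes, 1 holds such a word, and 532 of all 55681 probes do (0.955%). It is the Trp53inp1 probe A_51_P175580 (chr4:11101174-11101233, mm9, plus strand), in which ACTTGAA fills bases 34 to 40. The stretch around the word is shown with the word in capitals, because this transcript is the member that differed between the groups.

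Trp53inp1 A_51_P175580, bases 23 to 52: ttctctcatcaACTTGAAacttaaaaggga

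The second Trp53inp1 probe, A_55_P1973906 (chr4:11092530-11092589, mm9, plus strand), holds neither word and has 2 reading frames without a stop. From knowledge of the protein it is taken as coding sequence, but its place in the transcript was not checked.

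Trp53inp1 A_55_P1973906: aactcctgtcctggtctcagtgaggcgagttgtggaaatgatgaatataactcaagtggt

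A match of 7 bases describes the probe and does not show that the miRNA binds there, and the rest of the transcript was not analysed here.

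Between 28823 and 29800 of the 59305 spots on an array were well above background, no spot was saturated, and the 2 arrays of a group correlated across tested probes at 0.997 for control, 0.997 for miR-26a and 0.996 for sponge. Values are log2 of the quantile-normalized processed signal, and they compare arrays for one probe, not one probe with another. A probe entered the limma test when at least 1 array showed it well above background and at least 4 arrays gave it a processed signal over 50, and differences were called at a Benjamini-Hochberg adjusted p under 0.05 over all 20168 probes tested. Of the 13 member probes, 11 were tested and they cover all 9 genes. With 2 arrays in a group, the small number of arrays limits how precisely each difference is known.

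The label of the miR-26a arrays was checked with Stradb, a gene known as a miR-26 target. The study retrieved Stradb as a candidate from these same arrays, so its fall was known beforehand and the check is not independent. Neither Stradb probe passed with the sponge against control, so the sponge label is not checked by it. Of its 2 probes, A_52_P145349 had log2 signals of 9.20 and 9.21 in control, 7.69 and 7.64 with miR-26a and 9.25 and 9.43 with the sponge. The miR-26a arrays lie below the other arrays, and the log2 difference from control was -1.54 (adjusted p = 0.00289, limma). The other Stradb probe, A_52_P129697, had log2 signals of 6.96 and 6.91 in control, 6.11 and 6.03 with miR-26a and 7.20 and 6.84 with the sponge. Its miR-26a arrays are again the lowest, and the log2 difference from control was smaller, at -0.87 (adjusted p = 0.00968, limma). For the pre-B cell label, 11 probes of 9 B-lineage marker genes, such as Cd79a, Pax5 and Vpreb1, were read, and each array showed each of them well above background. Their summed linear signal was 493311 and 522704 in control, 485322 and 515976 with miR-26a, and 483863 and 531946 with the sponge, and Vpreb1 gave the largest term of the sum. None of these probes passed against control, and between miR-26a and sponge 2 passed, the Pax5 probe A_51_P122855 (log2 difference -0.36, adjusted p = 0.0280) and Ptprc (0.38, adjusted p = 0.0267). The part of these markers in the differences of the members was not tested.

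Among the 9 genes, Trp53inp1 was lower with miR-26a at both of its probes, and no other member passed the threshold against control. Compared with control, 2 of the 11 tested member probes were lower with miR-26a, where 5.14% of all probes tested (1036) were lower. None was higher by limma after adjustment, where 4.50% of all probes tested (908) were. Without the experiment as a block the member counts stayed at 2 and 0, while over all probes tested 238 were lower and 73 higher. Without control replicate 1 the counts over all probes were 75 and 29, and without control replicate 2 they were 98 and 35. At an unadjusted p under 0.05, 2 member probes were higher, those of Cdkn1a and Zmat3, where 14.3% of all probes tested were higher, and a test of the 2 within-experiment log ratios alone called 0 member probes in either direction. That test called 0 of all 20168 probes in each of the 3 comparisons, so its counts carry no information on the members. The median log2 difference of the 11 probes was 0.027, beside 0.010 over all probes tested.

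On probe A_51_P175580 the log2 signal of Trp53inp1 was 12.52 and 12.73 in control, 10.74 and 11.27 with miR-26a, and 12.61 and 12.87 with the sponge. Both miR-26a arrays were lower than each control and sponge array, and the control and sponge arrays overlapped. The log2 difference between miR-26a and control was -1.61 (95% confidence interval -1.86 to -1.37, adjusted p = 0.00317, limma), a 3.06-fold lower signal. The log2 difference was -1.77 in experiment 1 and -1.46 in experiment 2. Ordered by size, this was number 28 among the falls of all 20168 tested probes, and the fall at the other Trp53inp1 probe was number 70. A lower transcript level in each cell and fewer cells that express a gene cannot be told apart in bulk RNA.

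The probe A_55_P1973906 gave Trp53inp1 log2 signals of 8.44 and 8.69 in control, 7.14 and 7.55 with miR-26a, and 8.30 and 8.56 with the sponge. Again both miR-26a arrays lay below the others without overlap. The log2 difference from control was -1.22 (95% confidence interval -1.41 to -1.03, adjusted p = 0.00335, limma), a 2.33-fold lower signal, with -1.30 in experiment 1 and -1.14 in experiment 2. The fall was measured in 2 of 2 experiments at 2 probes that lie apart on the same gene, and both calls held whichever array was left out. Both were lost when no dim probe was filtered out and all 55681 probes entered the fit, with an adjusted p of 0.232 for each, and in the test of the log ratios alone, with 0.425 and 0.420. In this comparison 0 of the 55681 probes were called with no filter, and 0 of the 20168 in the test of the log ratios.

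**Figure D1:**
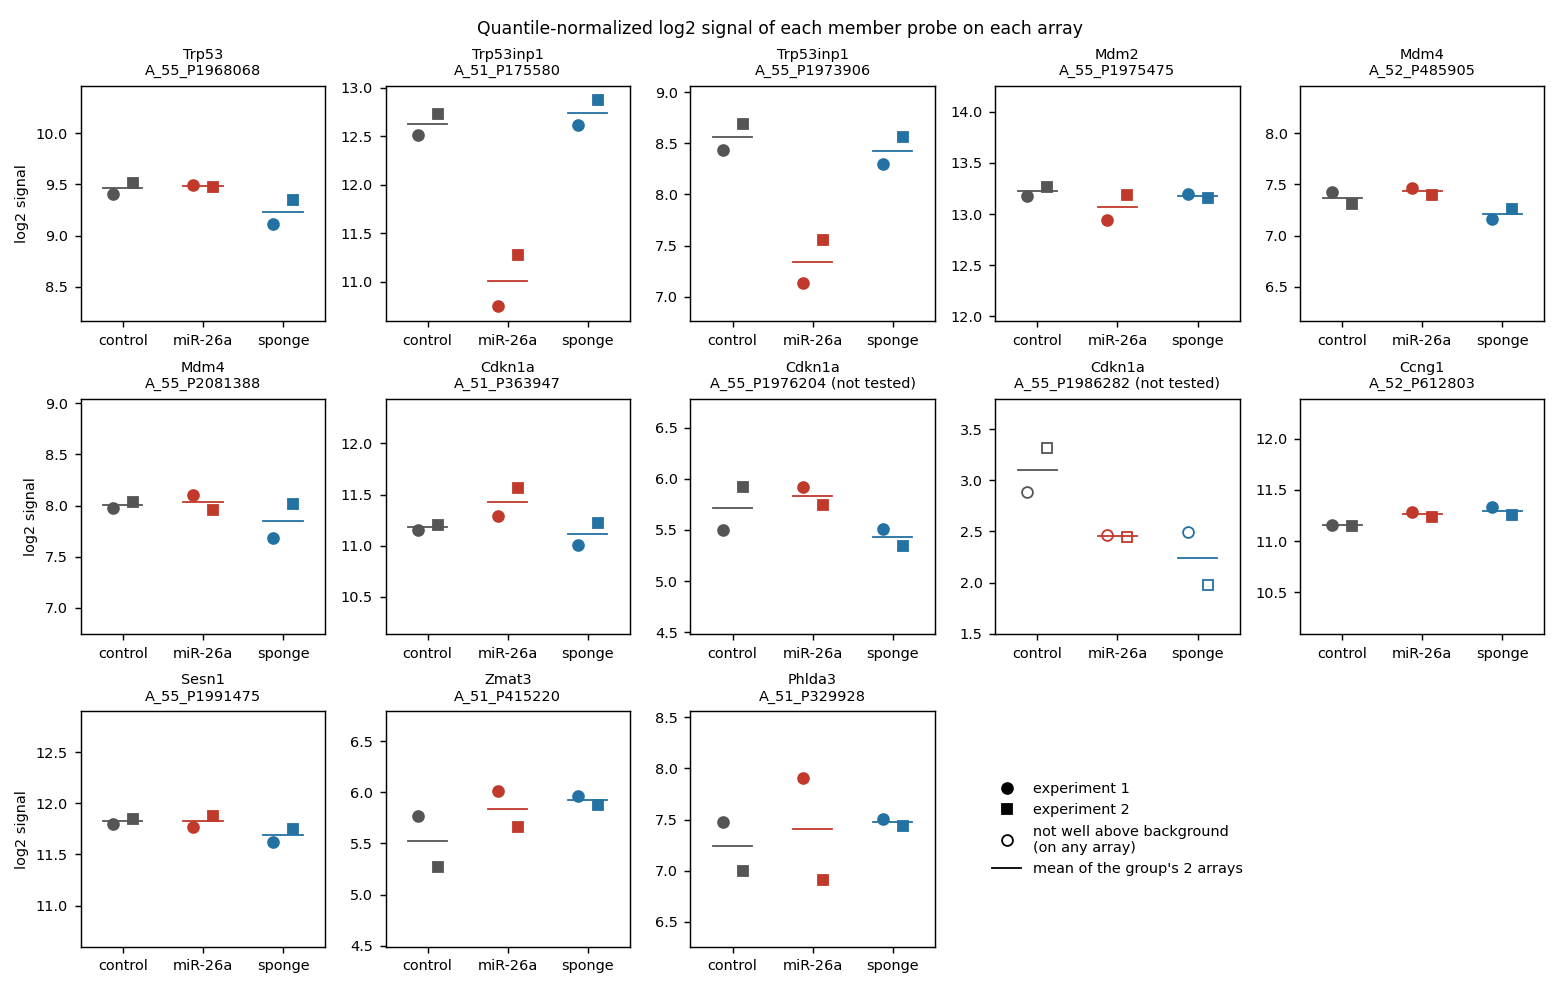
Log2 quantile-normalized signal (vertical axis) of the 13 member probes on the 6 arrays, grouped by vector, with circles for experiment 1, squares for experiment 2 and lines for the mean of the 2 arrays of a group. The vertical range is at least 2.3 log2 units in each panel, and both Trp53inp1 probes show miR-26a arrays below all control and sponge arrays (10.74 and 11.27 against 12.52 or more on A_51_P175580).

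Trp53 itself was measured by 1 probe, A_55_P1968068 (chr11:69404204-69404263, mm9, plus strand), which is printed on 2 spots and has 2 reading frames without a stop. It too is taken as coding sequence from knowledge of the protein, and its place in the transcript was not checked.

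Trp53 A_55_P1968068: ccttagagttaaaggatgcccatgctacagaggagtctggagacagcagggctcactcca

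Its log2 signal was 9.41 and 9.51 in control, 9.50 and 9.48 with miR-26a, and 9.12 and 9.34 with the sponge. The miR-26a arrays lie between the control arrays, and both sponge arrays lie below all others. The log2 difference between miR-26a and control was 0.027 (95% confidence interval -0.18 to 0.24, adjusted p = 0.882, limma). The log2 difference between sponge and control was -0.23 with an unadjusted p of 0.0366 and an adjusted p of 0.288, and it did not pass. The spots of this probe differed little, with an SD over the spots of 0.039 to 0.064 on the log2 scale in each array. The p53 protein was not analysed here.

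Mdm2, the ubiquitin ligase of p53 and one of its targets, had log2 signals of 13.17 and 13.27 in control, 12.94 and 13.19 with miR-26a, and 13.20 and 13.16 with the sponge (probe A_55_P1975475). The groups overlap. The log2 difference between miR-26a and control was -0.16 (95% confidence interval -0.38 to 0.066, adjusted p = 0.329, limma). The log2 difference was -0.23 in experiment 1 and -0.080 in experiment 2. The sponge gave a log2 difference of -0.042 for Mdm2 (adjusted p = 0.836). Mdm4, which restrains p53 without acting as an efficient ligase, was measured by 2 probes, with log2 signals of 7.43 and 7.30 in control, 7.47 and 7.40 with miR-26a and 7.16 and 7.26 with the sponge on A_52_P485905. On the other, A_55_P2081388, they were 7.98 and 8.03 in control, 8.11 and 7.95 with miR-26a and 7.68 and 8.01 with the sponge. Control and miR-26a arrays overlap on both Mdm4 probes, and on A_52_P485905 both sponge arrays are the lowest. The log2 difference from control with miR-26a was 0.069 on A_52_P485905 and 0.025 on A_55_P2081388, with adjusted p of 0.646 and 0.928 (limma).

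Cdkn1a encodes p21, the cyclin-dependent kinase inhibitor through which p53 arrests cells in G1, and it is carried by 3 probes. The probe A_51_P363947, printed on 10 spots, had log2 signals of 11.15 and 11.21 in control, 11.29 and 11.57 with miR-26a, and 11.01 and 11.22 with the sponge. Both miR-26a arrays lie above every control and sponge array. The log2 difference from control was 0.25 (95% confidence interval 0.047 to 0.45, unadjusted p = 0.0241, adjusted p = 0.121, limma), with 0.14 in experiment 1 and 0.36 in experiment 2. It did not pass the threshold. The spots of this probe had an SD of 0.031 to 0.071 on the log2 scale in each array. The probe A_55_P1976204 stood well above background on each array but was too dim for the test, with log2 signals of 5.50 and 5.92 in control, 5.92 and 5.75 with miR-26a, and 5.51 and 5.35 with the sponge, and these groups overlap except that miR-26a lies above the sponge. With a filter that asks only for a signal well above background on each array, its log2 difference between miR-26a and control was 0.12 with an adjusted p of 0.745 (limma). The probe A_55_P1986282 was not well above background on any array, with log2 signals of 2.89 and 3.32 in control, 2.46 and 2.44 with miR-26a, and 2.50 and 1.98 with the sponge, and was not tested.

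Ccng1, a cyclin that p53 induces, had log2 signals of 11.16 and 11.15 in control, 11.29 and 11.24 with miR-26a, and 11.34 and 11.25 with the sponge. Both other groups lie above the control arrays, and the log2 difference between miR-26a and control was 0.11 (95% confidence interval -0.059 to 0.27, adjusted p = 0.369, limma). Sesn1, a p53 target that limits mTOR signalling, had 11.79 and 11.85 in control, 11.77 and 11.87 with miR-26a, and 11.62 and 11.75 with the sponge as log2 signals. The miR-26a arrays of Sesn1 enclose the control arrays, and their log2 difference was 0.0012 with a 95% confidence interval of -0.17 to 0.17. Zmat3, which encodes an RNA-binding protein, had log2 signals of 5.77 and 5.27 in control, 6.01 and 5.67 with miR-26a, and 5.96 and 5.88 with the sponge. The Zmat3 probe passed the signal limit but was dim, near the signals of the Cdkn1a probe A_55_P1976204, which was too dim for the test. For Zmat3 the control and miR-26a arrays overlap, because its signal was higher in experiment 1 in both groups. Within experiments the log2 difference was 0.24 and 0.39 with miR-26a and 0.19 and 0.61 with the sponge, and neither comparison passed, with adjusted p of 0.141 and 0.233 (limma). Phlda3, which inhibits AKT at the membrane, had log2 signals of 7.48 and 6.99 in control, 7.91 and 6.91 with miR-26a, and 7.51 and 7.44 with the sponge. Its miR-26a arrays differed by more than any group means, and its log2 difference from control was 0.43 in experiment 1 and -0.086 in experiment 2. Over both it was 0.17 (95% confidence interval -0.34 to 0.68, adjusted p = 0.661, limma).

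**Figure D2:**
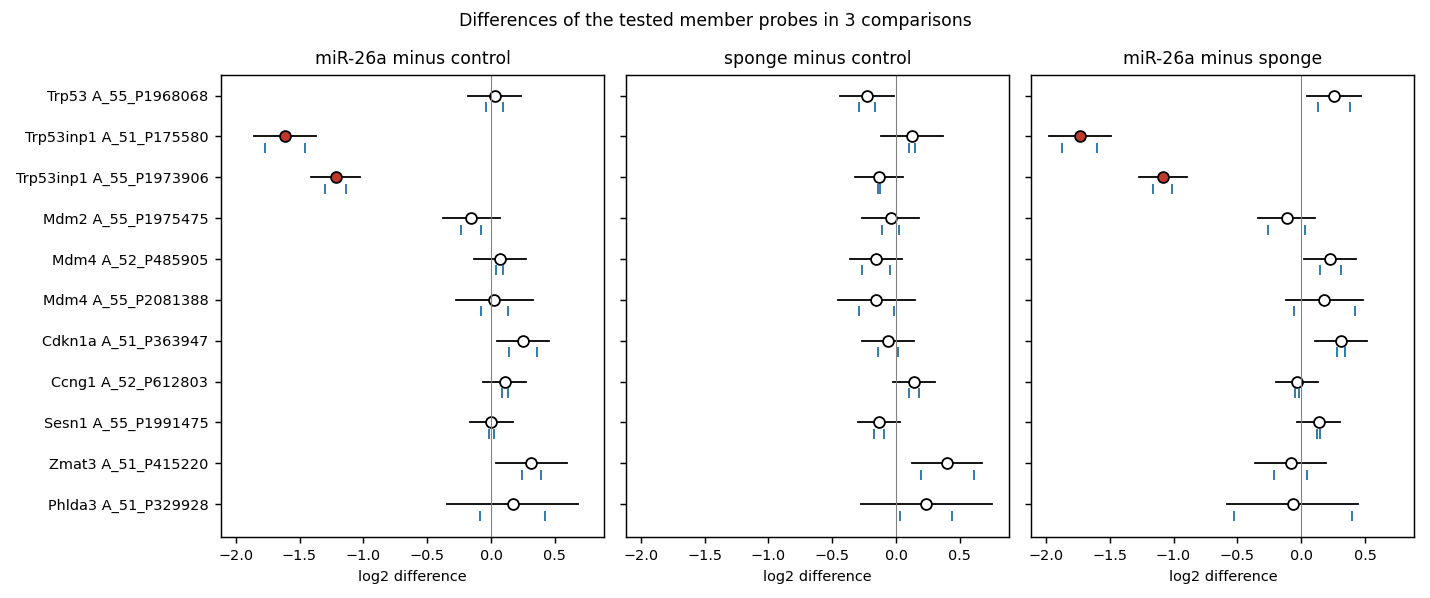
Log2 differences (horizontal axis) of the 11 tested member probes in 3 comparisons, with circles for the limma estimate, black lines for its 95% confidence interval and blue ticks for the value in each of the 2 experiments. Red circles mark an adjusted p under 0.05, which only the 2 Trp53inp1 probes reach, at -1.61 and -1.22 against control and -1.74 and -1.08 against the sponge.

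The sponge did not change any member at the threshold. Compared with control, 0 of 11 member probes were called with the sponge by limma after adjustment, where 0.00992% of all probes tested (2) were called, and the test of the log ratios alone, which called no probe at all, gave 0. The count over all probes was 35 without either miR-26a array, 36 with normexp and 0 without any one control or sponge array, and the member count was 0 in each. At an unadjusted p under 0.05 there were 2, the lower Trp53 probe and the higher Zmat3 probe, where 16.1% of all probes tested were called in either direction. The Zmat3 log2 difference was 0.40 (95% confidence interval 0.12 to 0.68), with an unadjusted p of 0.0128 (limma). This probe was dim, at log2 signals of 5.77 and 5.27 in control, so its differences rest on low signals. On Trp53inp1 the log2 difference between sponge and control was 0.12 (adjusted p = 0.569) on A_51_P175580 and -0.13 (adjusted p = 0.427) on A_55_P1973906. The values at the 2 probes have opposite signs, and both 95% confidence intervals include 0, at -0.12 to 0.36 and -0.32 to 0.054.

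Compared directly, miR-26a and sponge cells differed at the same 2 Trp53inp1 probes and at no other member probe. Lower with miR-26a were 2 of 11, where 8.49% of all probes tested were lower, and higher were 0 by limma, where 8.28% of all probes tested were higher. Over all probes, 1712 were lower and 1669 higher, and these counts were 292 and 140 without sponge replicate 1 and 285 and 125 without sponge replicate 2. Without either control array they were 1104 and 779, and without the block 632 and 365, with the member counts at 2 and 0 in each of these settings. The number higher was 1059 without miR-26a replicate 1 and 1087 without miR-26a replicate 2. At an unadjusted p under 0.05, 3 member probes were higher, those of Trp53, Cdkn1a and the Mdm4 probe A_52_P485905, where 18.7% of all probes tested were higher, and the test of the log ratios alone called 0 members and 0 of all probes. The Trp53inp1 log2 difference was -1.74 (adjusted p = 0.00200, limma) on A_51_P175580 and -1.08 (adjusted p = 0.00276) on A_55_P1973906. Both calls were lost with no filter on dim probes, where 0 of all 55681 probes were called lower and 0 higher. For Cdkn1a the log2 difference was 0.31 (95% confidence interval 0.11 to 0.52, adjusted p = 0.0542), with 0.28 in experiment 1 and 0.34 in experiment 2, and with a normexp background correction it passed, at a log2 difference of 0.30 and an adjusted p of 0.0288. For Trp53 it was 0.26 (adjusted p = 0.0930). The comparisons of miR-26a and sponge with control use the same control arrays and are not independent of each other or of this one.

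The genes whose profiles lay nearest to 4 members were found among 13272 or 13273 tested probes of other named genes, by the root mean square difference of log2 values centred on each probe's own mean over the 6 arrays. Nearest to Trp53inp1 were Ypel1 (0.115), Slamf9 (0.138) and H2-Oa (0.158). Their log2 differences between miR-26a and control, -1.73 for Ypel1, -1.64 for Slamf9 and -1.52 for H2-Oa, follow from how they were chosen and are a description only. Nearest to Trp53 were Ints1 (0.0181), Mau2 (0.0202) and Ankhd1 (0.0245), and nearest to Mdm2 were Tmem9b (0.0245), Fam100b (0.0270) and Esyt1 (0.0295). Nearest to Cdkn1a were Zfp784 (0.0202), Pisd-ps1 (0.0267) and Myl4 (0.0302). These distances describe 6 arrays, and the flatter the profile the more probes lie close to it.

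**Figure D3:**
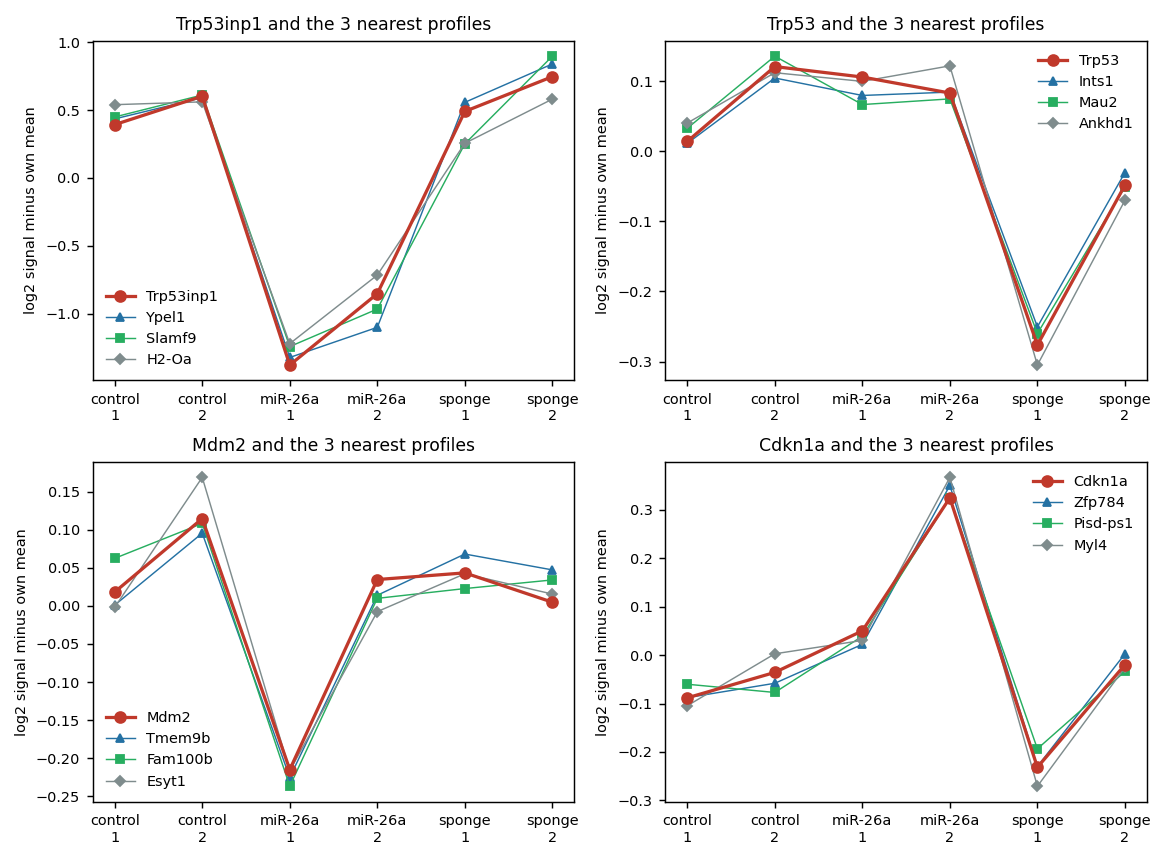
Log2 signal minus the probe's own mean over the 6 arrays (vertical axis) for Trp53inp1, Trp53, Mdm2 and Cdkn1a and, for each, the 3 nearest profiles. The panels have different vertical ranges, and Trp53inp1 and its neighbours drop below -0.7 only on the 2 miR-26a arrays.

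Other genes of the p53 network were counted over 4 lists, namely regulators and partners of p53, targets in cell cycle arrest and DNA repair, targets in apoptosis, and targets in metabolism, autophagy and other roles. The lists hold 91 genes, of which 90 have a probe on the array and 77 a tested probe, and 103 of their 129 probes were tested. With miR-26a against control, 7 of 103 probes were lower (6.80%) and 10 were higher (9.71%) after adjustment, beside 5.14% and 4.50% of all probes tested. The 7 include the Epha2 probe, whose signal passed the limit only on its control and sponge arrays. The lower share is therefore a description. The median log2 difference of the 103 probes was -0.013, beside 0.010 over all probes tested. With the sponge, 0 of 103 were called by limma, 17 had an unadjusted p under 0.05, where 16.1% of all probes tested did, and the test of the log ratios alone called 0 of them and of all probes.

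Among regulators and partners, 1 of 42 probes was lower (2.38%) and 2 were higher (4.76%) with miR-26a, beside 5.14% and 4.50% of all probes tested. The probe of Ppp1r13b, which encodes a protein that promotes apoptosis with p53, had a log2 difference of -0.44, while Ppp1r13l, whose product inhibits p53, had 0.68 and the kinase gene Chek2 had 0.37. The median log2 difference of this list was -0.016. In the list of arrest and repair targets, 2 of 20 probes were lower and 1 was higher, beside 5.14% and 4.50% of all probes tested. The list was drawn up from textbook knowledge and includes Trp53inp2, whose known role is in autophagy. Whether p53 controls these genes in these cells was not tested. The log2 difference was -0.89 for Trp53inp2, -0.64 for Ccng2 and 0.38 for Ddb2, a DNA damage binding protein gene. Trp53inp2, the paralogue of Trp53inp1 that acts in autophagy, had log2 signals of 9.82 and 9.92 in control, 8.90 and 9.06 with miR-26a, and 9.78 and 10.01 with the sponge. The miR-26a arrays of Trp53inp2 lie below all others, with an adjusted p of 0.00547 against control (limma), and its probe holds neither miR-26 word.

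Among apoptosis targets, 1 of 17 probes was lower (5.88%) and 3 were higher (17.6%) with miR-26a, beside 5.14% and 4.50% of all probes tested. The lower probe was that of Bbc3, which encodes the BH3-only protein PUMA, with log2 signals of 9.82 and 9.74 in control, 9.24 and 9.11 with miR-26a, and 10.06 and 10.10 with the sponge. The miR-26a arrays of Bbc3 are the lowest and the sponge arrays the highest, and the log2 difference from control was -0.61 with miR-26a (adjusted p = 0.0120) and 0.30 with the sponge (adjusted p = 0.226). The higher probes were those of Casp1, an inflammatory caspase gene, at 0.84, and both probes of Siva1, at 0.31 each. The median log2 difference of this list was 0.050 with miR-26a against control.

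Among metabolism, autophagy and other targets, 3 of 24 probes were lower (12.5%) and 4 were higher (16.7%) with miR-26a, beside 5.14% and 4.50% of all probes tested. Lower were the receptor kinase gene Epha2, at a log2 difference of -1.46, the diacylglycerol kinase gene Dgka, at -0.76, and the peptide transporter gene Tap1, at -0.31. The Epha2 probe had log2 signals of 6.50 and 6.13 in control, 5.01 and 4.70 with miR-26a, and 6.74 and 6.92 with the sponge, and its miR-26a arrays are the lowest. It entered the test only through its control and sponge arrays, because its signal was under 50 on both miR-26a arrays, so its values are a description. The 3 lower probes of this list include Epha2, so the lower share of the list is a description too. With normexp the Epha2 log2 difference was -0.65. Higher were both tested probes of Fbxw7, a ubiquitin ligase subunit gene, at 0.45 and 0.48, and both probes of 9630033F20Rik, the array's name for Tigar, which lowers glycolytic flux, at 0.50 and 0.37. With the sponge against control, the log2 difference was -0.29 for Tap1 and 0.50 and 0.12 for the 9630033F20Rik probes. None of these sponge differences passed, with adjusted p of 0.222, 0.221 and 0.427 (limma). The median log2 difference of this list with miR-26a was -0.059.

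**Figure D4:**
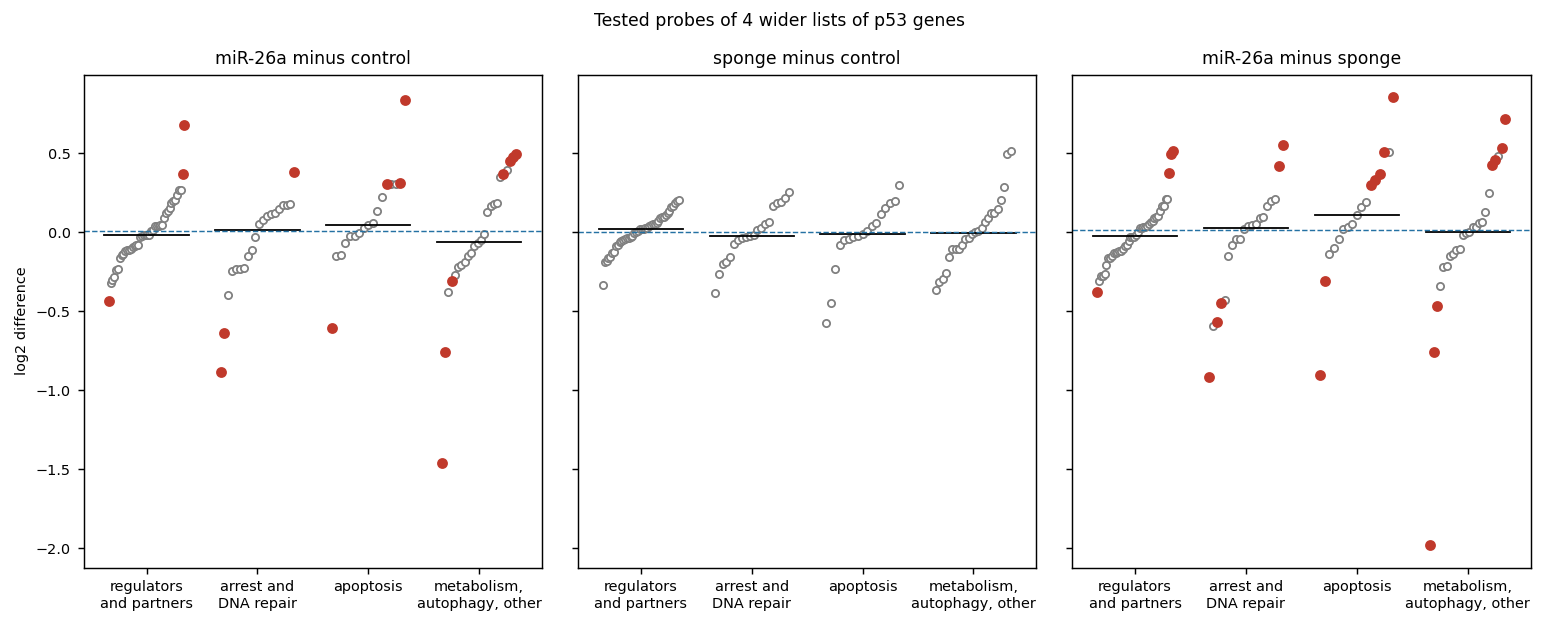
Log2 differences (vertical axis) of the 103 tested probes of the 4 lists in 3 comparisons, 1 circle for each probe in rising order within its list, filled in red at an adjusted p under 0.05. Black lines are list medians and the dashed line is the median of all probes tested, and the lists have called probes on both sides of 0 with miR-26a against control (7 lower and 10 higher) and none with the sponge. Epha2, whose signal passed the limit only on control and sponge arrays, is among the 7.

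Against the sponge, 9 of the 103 probes were lower with miR-26a (8.74%) and 14 were higher (13.6%), beside 8.49% and 8.28% of all probes tested. The 9 include Epha2, so the lower share is a description here too. Lower were Epha2 (log2 difference -1.98, or -0.94 with normexp, with the same limit on its use), Trp53inp2 (log2 difference -0.91), Bbc3 (-0.90), Dgka (-0.76), Ccng2 (-0.57), Ulk1 (-0.47), Fancc (-0.45), Rchy1 (-0.38) and Apaf1 (-0.31). Higher were Casp1 (0.86), Dcxr (0.72), Gadd45b (0.55), Fbxw7 (0.53 and 0.46), Ppp1r13l (0.52), Trp53i11 (0.51), Chek2 (0.50), Sco2 (0.43), Ddb2 (0.42), the Crebbp probe A_55_P1965836 (0.38), Ei24 (0.37) and Siva1 (0.33 and 0.30). The other tested Crebbp probe, A_55_P2054540, which holds the word TACTTGA, had a log2 difference of -0.15 against the sponge and -0.23 against control and passed in neither. Of the genes named, 3 more have a second tested probe that did not pass against the sponge, with log2 differences of 0.49 for Dcxr, 0.51 for Trp53i11 and -0.083 for Fancc.

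The counts over the lists moved with single arrays, as did those over all probes given above. Against control, the number lower fell from 7 to 0 without control replicate 1 and to 1 without control replicate 2, and the number higher fell from 10 to 0 without either control array and to 4 without any one of the other 4 arrays. Over all probes, 635 were lower and 488 higher without either sponge array, and 525 were higher without miR-26a replicate 2. Without the experiment as a block, 4 were lower and 0 higher. Against the sponge, the number lower fell from 9 to 3 without either sponge array, and the number higher fell from 14 to 0 without either sponge array, to 7 without either control array and to 9 without either miR-26a array. Without the block, 4 were lower and 4 higher against the sponge.

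Of 11 marker genes of other cell types, 6 had a probe that each array showed well above background, and 2, Cd14 and Col1a1, had none on any array. Their summed linear signal was 5615 and 6815 in control, 5607 and 6523 with miR-26a, and 4651 and 6303 with the sponge, and the integrin gene Itgam gave the largest term of the sum. The Itgam probe A_55_P1977929 was lower with miR-26a, with a log2 difference of -0.82 (adjusted p = 0.00720, limma), while the Itgam probe A_55_P1977934 gave 0.062 (adjusted p = 0.744). The part of these markers in the Trp53inp1 fall was not tested.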

How the data were processed

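RNA of 6 samples was measured, with groups and replicate numbers taken from the labels. The authors deposited scanner files made with Agilent Feature Extraction (version 10.7.1.1 by the submitters' notes), whose background-subtracted processed signal is the intensity used here, and a table of quantile-normalized intensities, which is linear. Control spots were dropped. Outlier-flagged spots took part in the normalization and were left out of a probe's average, unless every spot of that probe was flagged. The signals were quantile-normalized, taken to log2 and then averaged for each probe. The model in limma 3.58.1 (R 4.3.3, data.table version 1.17.8) had group and experiment as terms over 6 arrays and 20168 probes, with empirical Bayes variances and Benjamini-Hochberg adjusted p. The series design ties replicate numbers to experiments. Deviations from the group means of arrays with the same number correlated across probes at 0.379 between control and miR-26a. The values were 0.588 between control and sponge, and 0.454 between the 2 constructs. The replicate number also matches the row of the slide, so experiment and row cannot be told apart. The titles of the control arrays quote other accessions, so these may come from an earlier series.

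The members and lists were chosen with earlier results of these data known. Every probe of the 9 genes is given, the called probes of the lists are named, and Stradb is a check of the miR-26a label with the limit given above. From the marker lists, 2 genes are not reported here and do not enter the sums. Gene names and mm9 positions come from the array files. Of the 13 member probes, 12 carry a RefSeq accession, and 12 of these matched the same symbol in RefSeq. Alternatives were no block, scaling to the 75th percentile, normexp with an offset of 50, the authors' table, 3 other filters, array weights, a test of the log ratios alone and leaving out each array. The fit was tested on simulated data. Plots used pandas 2.3.3, numpy 2.4.6 and matplotlib 3.10.9.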

Additional observations from a re-analysis of the deposited data

Results flagged for a closer look

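The direct difference between miR-26a and sponge passed the threshold at both Trp53inp1 probes, with log2 differences of -1.74 on A_51_P175580 and -1.08 on A_55_P1973906, and these are given again because this comparison does not use the control arrays for its means. Among the wider lists, the probes below passed in this comparison and also had differences from control of opposite sign for miR-26a and sponge in both experiments, a restriction chosen after the data were seen. The share of all probes that meets it was not computed, and both differences use the same control arrays, so nothing is read from how many there are. Lower with miR-26a than with the sponge were Epha2 (-1.98, or -0.94 with normexp, and under the signal limit on both miR-26a arrays), Bbc3 (-0.90), Fancc (-0.45), Rchy1 (-0.38) and Apaf1 (-0.31). Higher were Dcxr (0.72), Gadd45b (0.55), the Fbxw7 probe A_51_P506683 (0.53), Trp53i11 (0.51), Chek2 (0.50), the Crebbp probe A_55_P1965836 (0.38), Ei24 (0.37) and the Siva1 probe A_55_P2056186 (0.33). Of 15 alternatives, 4 kept the call of Apaf1 and of this Siva1 probe, and 5 kept those of this Crebbp probe and Ei24. The most was 13, for Epha2 and Bbc3. No sponge difference from control passed for any of the probes named. Some were small, at -0.028 for this Siva1 probe, -0.082 for this Fbxw7 probe and 0.058 for Rchy1. The miR-26a difference from control was 0.046 for this Crebbp probe and 0.058 for the Trp53i11 probe A_55_P1955632. At the second tested probes of Siva1, Fbxw7, Fancc, Trp53i11 and Crebbp, both differences from control had the same sign. At that of Dcxr they had opposite signs. The reason for the opposite directions was not tested.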

How the results depend on the processing

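For the 33 member results (11 probes in 3 comparisons) under 15 alternatives each, 470 of 495 kept their direction and their side of the threshold. The Trp53inp1 calls against control and sponge were kept in 13 of 15, with log2 differences of -1.76 to -1.47 and -1.88 to -1.59 on A_51_P175580, while on A_55_P1973906 they ran from -1.30 against control to -0.87 against the sponge. The counts of lower member probes fell from 2 to 0 with no filter and in the test of the log ratios, and normexp added 1 higher member probe, Cdkn1a, against the sponge. In 16 cases a difference that passed in neither setting changed sign. Of these, 3 were under other processing, namely Mdm2 with the sponge at 0.044 (75th percentile) and Sesn1 with miR-26a at -0.0075 under normexp and -0.0052 in the authors' table. Leaving out 1 array gave the others, with ranges against control of -0.068 to 0.12 for Trp53, -0.15 to 0.20 for Mdm4 A_55_P2081388, -0.028 to 0.030 for Sesn1 and -0.19 to 0.53 for Phlda3 with miR-26a, and of -0.15 to 0.063 for Mdm2, -0.34 to 0.033 for Mdm4 A_55_P2081388, -0.16 to 0.032 for Cdkn1a and -0.10 to 0.57 for Phlda3 with the sponge. Between miR-26a and sponge they were -0.0079 to 0.37 for Mdm4 A_55_P2081388, -0.25 to 0.086 for Zmat3 and -0.42 to 0.29 for Phlda3.

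For the 40 calls of wider list probes under 15 alternatives each, 305 of 600 were kept and 295 were lost. With no filter and in the test of the log ratios no probe at all was called in any comparison. All 40 calls were therefore lost in each of those settings, and these losses carry no information on the lists. The counts over the wider lists against control moved more than those of the members. Without the replicate block, 4 were lower and 0 higher, and the pairing changed no member call. With no filter and in the test of the log ratios both were 0, with probes well above background on all 6 arrays they were 4 and 0 (382 and 191 of all 24961 probes), and with signal above 50 on at least 2 arrays 5 were higher (801 of all 20905). Leaving out 1 array gave 0 to 6 lower and 0 to 4 higher.  Signal over background limits the Cdkn1a probe A_55_P1986282, and the signal limit left out A_55_P1976204. Against the sponge, 0 wider list probes and 0 of all probes were called with no filter. With probes well above background on all 6 arrays, 5 wider list probes were lower and 5 higher than with the sponge. Over all probes 900 were lower and 628 higher at that filter. The cause of the changes between filters was not tested.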
